A study of Homo sapiens with 15 samples.

Results

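The RAB small GTPases were taken as the protein-coding genes whose symbol is RAB followed by digits and at most one letter and one digit. GENCODE 44 holds 63 such genes, and all 63 were found among the 61552 genes of the counts table. Of these, 51 had enough counts to be tested in the drug experiment and 49 in the line experiment. RNA was sequenced from MDA-MB-468, an established epithelial line of triple-negative breast cancer that carries very high EGFR, in 15 libraries of 3 replicates per group. The comparisons ask how the block of nuclear entry of EGFR and the block of its kinase change the genes of membrane traffic.

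In the drug experiment, all 9 libraries came from parental cells that were serum starved for 12 h and stimulated with 10 ng/mL EGF. The EGF group received no drug, the cSNX1.3 group received 10 μM of the peptide cSNX1.3, which keeps EGFR from binding Sorting Nexin 1, and the erlotinib group received 15 μM of this EGFR kinase inhibitor, the drugs for 12 h. In the line experiment, endogenous EGFR was knocked down in both lines by an IPTG-inducible lentiviral shRNA against its 3′ UTR, and an EGFR-GFP construct was then introduced. The shEGFR-WT line received the wildtype receptor and the shEGFR-NLS line (ΔNLS) a receptor with arginines and a lysine of the nuclear localization sequence changed to aspartic acids. Both lines were given EGF, for a time that the labels do not state. Each construct is represented by a single line whose clonality is not stated, so the mutation and any other difference between the lines cannot be told apart. The labels do not say that replicates came from separate cultures, and p-values then measure only the spread between these libraries.

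RAB proteins are molecular switches that sit on membranes when bound to GTP and recruit effectors that move, tether and fuse vesicles. Exchange factors load them with GTP, GTPase-activating proteins return them to the GDP form, and GDP dissociation inhibitors carry the GDP form through the cytosol. Each RAB marks certain compartments, and an internalised receptor such as EGFR passes through RAB5 early endosomes before RAB4 and RAB11 vesicles recycle it or RAB7 late endosomes deliver it to lysosomes. Transcript levels are not levels of active RAB on a membrane.

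Library totals ranged from 22915676 to 35900649 counts on genes. Every pair of replicates differed by more than sampling noise (chi-square per degree of freedom 2.60 to 22.3). EGFR had a mean of 4678 CPM in the EGF group (counts per 1000000 of the library's size after TMM scaling), 6078 in cSNX1.3 and 4681 in erlotinib, against 1360 in the WT line and 1752 in the ΔNLS line, where reads of the construct and of the endogenous gene were not told apart. All 6 epithelial markers were at 80.6 CPM or more in every library. Their sum, most of it keratin, was 13518 to 17523 CPM in EGF, 15328 to 19951 in cSNX1.3 and 7760 to 9206 in erlotinib. In the WT line it was 17632 to 20560 and in the ΔNLS line 10694 to 13034, so it was lower in erlotinib and in ΔNLS. CDH1, however, was higher in erlotinib (123 to 131.5 CPM) than in EGF (90.8 to 94.7), and EPCAM overlapped (331 to 368 against 345 to 428). In ΔNLS, CDH1 was lower (92.1 to 103 CPM, against 124 to 129 in WT) and EPCAM overlapped. The 8 markers of immune, endothelial and fibroblast cells summed to 12.8 to 23.3 CPM, most of it from COL1A1 at 8.42 to 21.1 CPM, while CD3E, CD68 and COL1A2 were at or near 0. In bulk RNA, fewer cells with a transcript and less of it per cell cannot be told apart.

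Per kilobase of exon, RAB1B, RAB25, RAB1A, RAB10 and RAB7A were the most abundant members in the EGF libraries, with mean levels of 109, 97.0, 96.2, 86.2 and 52.9 RPKM. RAB1A and RAB1B act between the endoplasmic reticulum and the Golgi, RAB10 in exocytosis, RAB7A on late endosomes and lysosomes, and RAB25 is the epithelial member of the RAB11 recycling group. RAB1B lay at 103 to 118 RPKM in the EGF libraries and RAB25 at 90.4 to 107, and these neighbours in the order overlapped. RAB3C, RAB6C, RAB6D, RAB9B, RAB32, RAB37, RAB39A, RAB39B, RAB40A, RAB41, RAB42 and RAB44 failed the filter on low counts in both fits, with at most 13 counts in any library, and RAB32 had 0 counts in all 15. RAB4B and RAB33A, with at most 15 and 21 counts, were tested with the drugs and in the fit of all 15 libraries, but not in the fit of the 6 line libraries.

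Within groups, certain libraries were the highest for many members, and the share of all genes that did the same is not given. cSNX1.3 replicate 1 was the highest of its 3 for 33 of 51 members, and WT replicate 2 for 31 of 49. The summed CPM of KRT8, KRT17, KRT18 and KRT19 was also highest in these libraries of their groups (19379 in cSNX1.3 replicate 1 against 16732 and 14843, and 19983 in WT replicate 2 against 17389 and 17114). In erlotinib, in contrast, replicate 2 was the highest for 23 of 51 members and had the lowest keratin sum (7272 against 8744 and 8215). Without cSNX1.3 replicate 1, the same number of members, 3, was called against EGF, and without WT replicate 2, 28 members were called in ΔNLS vs. WT instead of 29.

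In erlotinib vs. EGF, RAB7B, RAB3B, RAB43, RAB3A and RAB6B fell and RAB26, RAB30, RAB15, RAB24 and RAB4A rose. In all, 20 of the 51 tested members were called at an adjusted p under 0.05 by edgeR's quasi-likelihood test (39.2%). Of these, 12 were lower (23.5%, against 21.2% of all genes) and 8 higher (15.7%, against 22.8%). Of all 15738 genes tested, 44.0% were called. Among genes averaging 10 CPM or more, a level chosen after the values were seen, 14 of 40 members (35%) were called, against 47.9% of 9437 genes. The median log2 fold change of the 51 members was 0.03, against 0.01 over all genes. Late endosomal and lysosomal members were called in 4 of 7 cases (57.1%) and members of exocytosis in 5 of 10 (50%). Early and recycling endosomal members were called in 6 of 16 (37.5%) and secretory and Golgi members in 5 of 14 (35.7%), against 44.0% of all genes. In each of these roles 3 members were lower (42.9%, 30%, 18.8% and 21.4% in that order, against 21.2% of all genes).

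RAB7B, which acts in transport from late endosomes to the Golgi and lysosomes, had 6.78, 6.76 and 6.13 CPM in the EGF libraries and 1.64, 1.75 and 1.93 CPM in the erlotinib libraries. All 3 erlotinib values were below every EGF value, and the fitted log2 fold change was -1.88 ± 0.16 (SE, n = 3 per group, adjusted p = 1.76e-07). RAB7A, the abundant relative that controls fusion of late endosomes with lysosomes, had 384, 390 and 367 CPM in EGF and 289, 277 and 275 CPM in erlotinib. Its fall of 0.44 ± 0.08 on the log2 scale passed the test (adjusted p = 0.000553). RAB38, a member of lysosome-related organelles, went from 11.8 to 14.2 CPM in EGF to 8.93 to 9.19 CPM in erlotinib (log2 fold change -0.51 ± 0.11, adjusted p = 0.00202). RAB24, which is linked to autophagy, moved the other way. It had 8.73, 7.72 and 7.60 CPM in EGF and 13.7, 11.0 and 12.8 CPM in erlotinib (log2 fold change 0.64 ± 0.13, adjusted p = 0.00107), with groups that did not overlap, and 44.8% of its exon bases are shared with MXD3.

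Among the secretory members, RAB3A and RAB3B, which dock granules in regulated exocytosis, were at low levels and fell. RAB3B had 5.43, 4.31 and 4.76 CPM in EGF and 2.14, 1.59 and 1.23 CPM in erlotinib, so that the groups were apart (log2 fold change -1.53 ± 0.21, adjusted p = 2.45e-05). RAB3A went from 2.07 to 2.56 CPM to 0.856 to 1.55 CPM (log2 fold change -0.89 ± 0.25, adjusted p = 0.00971). RAB26, known for the maturation of secretory granules, rose most. Its 3 EGF libraries held 1.84, 1.75 and 1.85 CPM and its erlotinib libraries 5.78, 4.61 and 5.77 CPM, a log2 fold change of 1.58 ± 0.18 (adjusted p = 3.80e-06). RAB27B, which tethers secretory vesicles at the plasma membrane, had 81.1 to 89.5 CPM in EGF and 92.5 to 121 CPM in erlotinib. Its rise of 0.28 ± 0.11 was close to the threshold (adjusted p = 0.0451), and it was 0.15 (adjusted p = 0.230) without erlotinib replicate 2, the highest library, 0.24 (0.146) without EGF replicate 1 and 0.27 (0.110) without EGF replicate 3. The call was also lost in DESeq2's test (adjusted p = 0.0701), with DESeq2's size factors (0.0576) and in the fit of all 15 libraries (0.0521).

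On the Golgi, RAB43 and RAB6B fell and RAB30 rose. RAB6B, a Golgi RAB best known from neurons, had 32.0, 33.1 and 31.4 CPM in EGF and 18.0, 17.7 and 17.8 CPM in erlotinib (log2 fold change -0.85 ± 0.09, adjusted p = 1.61e-06), with little spread in either group. RAB6A, the widely used Golgi paralog, had 178 to 182 CPM in EGF and 194 to 226 CPM in erlotinib, a log2 difference of 0.19 ± 0.09 that did not pass the test (adjusted p = 0.108). RAB43 had 8.16 to 9.27 CPM in EGF and 3.47 to 4.61 CPM in erlotinib (log2 fold change -1.03 ± 0.16, adjusted p = 7.76e-05). It shares 79.3% of its exon bases with the readthrough gene ISY1-RAB43, and how reads on the shared bases were counted is not stated. RAB30 went from 8.37, 7.17 and 8.08 CPM in EGF to 12.5, 16.4 and 13.2 CPM in erlotinib (log2 fold change 0.83 ± 0.14, adjusted p = 0.000153).

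Among the early and recycling endosomal members, RAB15, RAB4A and RAB17 were higher and RAB5C, RAB35 and RAB11A lower with erlotinib. RAB4A, which drives fast recycling to the cell surface, had 43.3, 52.9 and 45.3 CPM in EGF and 66.7, 71.7 and 70.1 CPM in erlotinib (log2 fold change 0.56 ± 0.10, adjusted p = 0.000401). RAB17, a RAB of polarised epithelial recycling, went from 34.6 to 37.7 CPM to 44.2 to 48.6 CPM (log2 fold change 0.37 ± 0.09, adjusted p = 0.00257). RAB11A, which controls slow recycling, was at 145 to 170 CPM in EGF and 116 to 135 CPM in erlotinib. Its fall of 0.31 ± 0.10 (adjusted p = 0.0232) no longer passed without erlotinib replicate 1 (adjusted p = 0.0833), erlotinib replicate 3 (0.0628) or EGF replicate 2 (0.0746). Of the RAB5 genes, whose products fuse early endosomes, RAB5C fell by 0.40 ± 0.12 (adjusted p = 0.0142, and 0.0868 without erlotinib replicate 3), while RAB5A and RAB5B had log2 differences of 0.12 ± 0.09 and 0.15 ± 0.09 that did not pass (adjusted p = 0.309 and 0.172). RAB25 and RAB11B, at 0.18 ± 0.10 and 0.11 ± 0.10, did not pass either (adjusted p = 0.130 and 0.374). The remaining called members were RAB33B (log2 fold change 0.32), RAB35 (-0.31), RAB1A (-0.41) and RAB8A (-0.45). Of its exon bases, RAB1A shares 22.9% with CEP68 on the other strand, and RAB5C 28.8% with the protein-coding gene ENSG00000267261. The call of RAB33B was lost without erlotinib replicate 2 (adjusted p = 0.130), EGF replicate 1 (0.0702), EGF replicate 2 (0.101) or EGF replicate 3 (0.0786), and also with no filter on low counts (0.0909) and in DESeq2's test (0.0560), and that of RAB35 without erlotinib replicate 2 (0.0501) or 3 (0.0584).

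**Figure D1:**
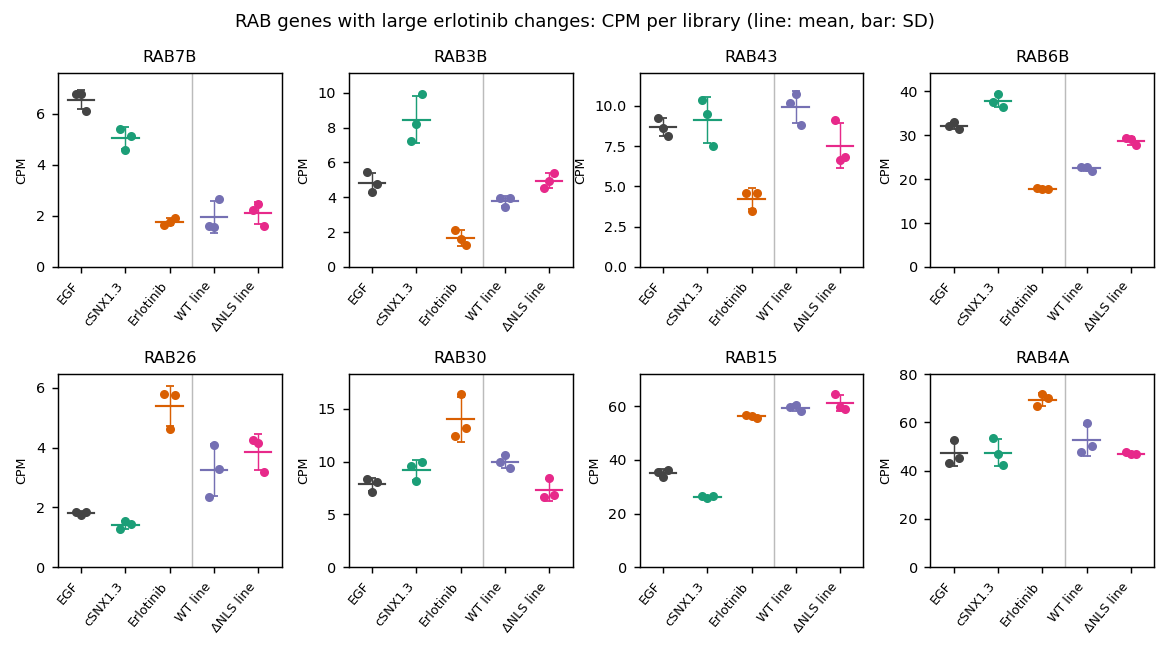
CPM of 8 RAB genes in all 15 libraries (points), with the mean (line) and SD (bar) of each group of 3 and an axis that starts at 0; the grey line divides the drug libraries from the line libraries, which were scaled in separate fits. In erlotinib, RAB7B, RAB3B, RAB43 and RAB6B lay below and RAB26, RAB30, RAB15 and RAB4A above all 3 EGF libraries, and RAB3B and RAB15 lay on the opposite side of EGF with cSNX1.3.

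With cSNX1.3, 3 members changed against EGF. RAB3B and RAB31 rose (3.92% of 51 members, against 3.38% of all genes) and RAB15 fell (1.96%, against 2.69%), which together makes 5.88%, against 6.07% of all 15738 genes. At an unadjusted p under 0.05 there were 11 members, but the share of all genes at that threshold is not given, so this count has no background. RAB31, which carries cargo between the trans-Golgi network and endosomes and is also known from EGFR traffic, had 206, 238 and 210 CPM in EGF and 373, 316 and 320 CPM in cSNX1.3. The 2 groups did not overlap, and the log2 fold change was 0.63 ± 0.10 (adjusted p = 0.000699), or 0.54 (adjusted p = 0.00155) without cSNX1.3 replicate 1, the highest library. RAB3B had 7.25, 8.20 and 9.93 CPM in cSNX1.3 (log2 fold change 0.81 ± 0.18, adjusted p = 0.0122). With cSNX1.3 replicate 3 left out it had 0.68 (adjusted p = 0.0683), and with EGF replicate 3 left out 0.80 (adjusted p = 0.0504), and neither passed. RAB15, which sits on early and recycling endosomes, had 35.5, 33.8 and 36.2 CPM in EGF and 26.4, 25.8 and 26.6 CPM in cSNX1.3. Its fall of 0.42 ± 0.08 (adjusted p = 0.00557) rested on groups that were well apart.

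None of the 9 endosomal and Golgi members chosen for description (RAB5A, RAB5B, RAB5C, RAB4A, RAB7A, RAB11A, RAB11B, RAB25 and RAB6A) was called in cSNX1.3 vs. EGF by edgeR, and 1, RAB7A, had an unadjusted p under 0.05. Their log2 differences ran from -0.15 for RAB5B to 0.23 for RAB7A. RAB7A had 463, 433 and 438 CPM in cSNX1.3, above all 3 EGF libraries, with 0.23 ± 0.08 and an adjusted p of 0.137. DESeq2 called it (adjusted p = 0.0413). RAB5A (0.13 ± 0.09), RAB5C (0.09 ± 0.12), RAB4A (0.01 ± 0.10), RAB11A (0.19 ± 0.10), RAB11B (0.02 ± 0.10), RAB25 (0.14 ± 0.10) and RAB6A (-0.01 ± 0.09) lay within about 2 SE of 0.

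RAB3B and RAB15 were called with both drugs, in opposite directions. These comparisons share the EGF libraries, and the direct test of cSNX1.3 against erlotinib gave log2 fold changes of 2.34 ± 0.20 for RAB3B (adjusted p = 9.41e-08) and -1.10 ± 0.08 for RAB15 (adjusted p = 2.18e-08). In the direct test 24 of 51 members were called (47.1%, against 56.1% of all genes). In cSNX1.3, 14 were higher (27.5%, against 27.6%) and 10 lower (19.6%, against 28.5%). Among genes averaging 10 CPM or more, 16 of 40 members were called (40%, against 60.5%). RAB7B (1.51), RAB43 (1.10), RAB6B (1.08), RAB38 (0.85) and RAB7A (0.67) were higher in cSNX1.3, and RAB26 (-1.93), RAB30 (-0.60), RAB24 (-0.57) and RAB4A (-0.55) were lower.

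The promoter windows of RefSeq (GRCh38.p14) run from 250 bases before to 50 after a gene's start and hold 50 of the 63 members. They were searched on both strands for TGANTCA, the AP-1 type of site, CACGTG, an E-box, and CCGGAAGT, an ETS type of site. None of these motifs contains another. TGANTCA was in 3 of 50 members (6%, against 7.76% of 27305 promoters), CACGTG in 6 of 50 (12%, against 7.43%) and CCGGAAGT in 4 of 50 (8%, against 4.44%). The windows of 30 bases around matches in RAB3B and RAB31, which rose with cSNX1.3, and in RAB5A and RAB5B, which fell in the ΔNLS line, are shown to let these genes be read beside their values, with the match in capitals.
RAB3B, chr1:51990801-51990830, minus strand: cctggaggtccTGAGTCAcctcggattaca
RAB5B, chr12:55973728-55973757, plus strand: ttagatgtttaTGAGTCAaaaggcggggtc
RAB31, chr18:9708229-9708258, plus strand: ccggccggcggcCACGTGacccaccgcggc
RAB5A, chr3:19946964-19946993, plus strand: cactcgcagggtCACGTGacatcctgcctc
A match is a run of letters and not a measured site. The windows shown are only some of the matches, and the matches did not go with 1 direction. RAB34, which rose in ΔNLS, also holds TGAGTCA, and RAB29, not called with either drug or between the lines, holds CACGTG. RAB3B also fell with erlotinib, and RAB31 fell in ΔNLS.

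In ΔNLS vs. WT, 29 of the 49 tested members were called, 21 lower and 8 higher in the ΔNLS line. RAB27B, RAB9A, RAB38, RAB31, RAB11A and RAB18 fell most and RAB34, RAB2B, RAB3A, RAB40C, RAB3B and RAB6B rose most. The share called was 59.2%, against 41.4% of all 15805 genes. It was 42.9% against 21.0% for lower calls and 16.3% against 20.4% for higher calls. The median log2 fold change of the members was -0.13, against 0.01 over all genes. RAB genes are well expressed, and among genes averaging 10 CPM or more, a level chosen after the values were seen, 19 of 38 members (50%) were lower, against 26.0% of 9525 genes.

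RAB27B is on chromosome 18 (ENSG00000041353, chr18:54717860-54895516, plus strand, GRCh38) and showed the largest difference among the members. It had 254, 314 and 259 CPM in the WT line and 80.5, 99.7 and 95.4 CPM in the ΔNLS line. Every ΔNLS value was less than every WT value, and the log2 fold change was -1.59 ± 0.09 (adjusted p = 2.01e-09). Its paralog RAB27A, which acts in the same secretory pathway, had 48.1, 49.2 and 48.9 CPM in WT and 41.0, 42.8 and 40.7 CPM in ΔNLS, a fall of 0.23 ± 0.07 (adjusted p = 0.0144, and 0.0719 without ΔNLS replicate 3).

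RAB9A and RAB38 belong to late endosomes and lysosome-related organelles. RAB9A (ENSG00000123595, chrX:13689128-13710504, plus strand), which returns receptors from late endosomes to the Golgi, had 61.8, 67.0 and 59.9 CPM in WT and 32.4, 29.98 and 30.6 CPM in ΔNLS. The log2 fold change was -1.02 ± 0.08 (adjusted p = 2.42e-08), and the groups were far apart. RAB38 (ENSG00000123892, chr11:88113251-88175443, minus strand) had 18.3, 18.3 and 19.5 CPM in WT and 10.3, 9.62 and 8.02 CPM in ΔNLS (log2 fold change -1.001 ± 0.11, adjusted p = 1.34e-06).

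The early and recycling endosomal members were called lower in 9 of 15 cases (60%, against 21.0% of all genes) and higher in 0 (against 20.4%). At an unadjusted p under 0.05 there were 10, with no share of all genes given at that threshold. RAB31 (ENSG00000168461, chr18:9708275-9862551, plus strand) had 306, 313 and 299 CPM in WT and 205, 209 and 203 CPM in ΔNLS. It fell by 0.58 ± 0.06 on the log2 scale (adjusted p = 2.62e-06), in contrast to its rise with cSNX1.3. RAB11A had 186, 200 and 181 CPM in WT and 136, 139 and 134 CPM in ΔNLS (log2 fold change -0.47 ± 0.07, adjusted p = 2.94e-05). Its paralog RAB11B did not pass the test, at 83.6 to 88.9 CPM in WT and 88.6 to 97.8 CPM in ΔNLS (0.10 ± 0.07, adjusted p = 0.248). RAB25, the third gene of that group, had 157 to 194 CPM in WT and 129 to 142 CPM in ΔNLS, a fall of 0.37 ± 0.08 (adjusted p = 0.00195).

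All 3 RAB5 genes were lower in ΔNLS. RAB5A had 48.1, 51.4 and 50.7 CPM in WT and 40.5, 39.7 and 37.4 CPM in ΔNLS (log2 fold change -0.35 ± 0.07, adjusted p = 0.00101). RAB5B had 111 to 116 CPM in WT and 89.2 to 93.2 CPM in ΔNLS (-0.31 ± 0.06, adjusted p = 0.00108), and RAB5C 46.2 to 47.8 and 38.1 to 39.3 CPM (-0.27 ± 0.07, adjusted p = 0.00524, and 0.0528 in the fit of all 15 libraries). The related early endosomal members RAB21, RAB22A and RAB14 fell as well, with log2 fold changes of -0.38, -0.33 and -0.37. RAB4A had 47.7, 60.0 and 50.1 CPM in WT and 47.8, 46.8 and 46.8 CPM in ΔNLS, so the groups overlapped, and its difference of -0.16 ± 0.09 did not pass (adjusted p = 0.152). RAB7A had 361, 375 and 361 CPM in WT and 307, 304 and 296 CPM in ΔNLS (-0.28 ± 0.07, adjusted p = 0.00305).

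Of the 13 secretory and Golgi members tested, 6 were lower (46.2%, against 21.0% of all genes) and 3 higher (23.1%, against 20.4%). RAB18, which acts at the endoplasmic reticulum and lipid droplets, had 71.1, 82.7 and 74.6 CPM in WT and 51.8, 58.2 and 57.5 CPM in ΔNLS (log2 fold change -0.45 ± 0.08, adjusted p = 0.000235). RAB6A fell by 0.24 ± 0.07 (adjusted p = 0.0157), and its call was lost without ΔNLS replicate 1 (adjusted p = 0.0730) or 3 (0.0559). Its relatives RAB6C and RAB6D are nearly identical in sequence, and had at most 9 and 4 counts in any library, against 3890 or more for RAB6A. How reads that match more than 1 of them were counted is not stated. RAB30 (-0.45), RAB1A (-0.41), RAB2A (-0.40) and RAB43 (-0.39) were also lower. The RAB43 groups overlapped, and its call was lost without WT replicate 1 (adjusted p = 0.0653), WT replicate 2 (0.0771), ΔNLS replicate 2 (0.128) or ΔNLS replicate 3 (0.122). RAB10 (-0.38), an exocytic RAB with 347 to 419 CPM in WT and 284 to 295 CPM in ΔNLS, completed the lower calls.

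RAB34, a Golgi RAB known from lysosome positioning and cilia, rose most. It is on chromosome 17 (ENSG00000109113, chr17:28714281-28718429, minus strand) and had 6.82, 8.87 and 6.10 CPM in WT and 17.4, 15.8 and 13.6 CPM in ΔNLS, with no overlap (log2 fold change 1.11 ± 0.14, adjusted p = 6.79e-06). RAB2B, a paralog of RAB2A at the Golgi, had 5.10, 4.13 and 6.15 CPM in WT and 6.93, 9.14 and 9.75 CPM in ΔNLS (0.74 ± 0.16, adjusted p = 0.00136), opposite to the fall of RAB2A. RAB6B rose from 21.8 to 22.8 CPM to 27.7 to 29.3 CPM (0.36 ± 0.08, adjusted p = 0.00169), and RAB40C, which belongs to a ubiquitin ligase, from 15.7 to 17.6 CPM to 21.0 to 22.5 CPM (0.38 ± 0.09, adjusted p = 0.00199). RAB8A, an exocytic and ciliary RAB, rose by a log2 value of 0.26 ± 0.07 (adjusted p = 0.00801), although 39.7% of its exon bases overlap a long noncoding RNA on the other strand.

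The remaining 3 rises lost their call when single libraries were left out and under other fits. RAB3A had 1.24, 1.19 and 1.37 CPM in WT and 2.22, 2.61 and 1.48 CPM in ΔNLS (0.73 ± 0.23, adjusted p = 0.0179, and 0.0616 without ΔNLS replicate 1 and 0.106 without ΔNLS replicate 2, and 0.0572 in DESeq2's test). RAB3B had 3.45 to 3.96 CPM in WT and 4.53 to 5.40 CPM in ΔNLS (0.38 ± 0.14, adjusted p = 0.0361). Its call was lost without WT replicate 1 (adjusted p = 0.0606), 2 (0.0894) or 3 (0.0588) and without ΔNLS replicate 2 (0.0742) or 3 (0.145), and also with no filter on low counts (0.0719), in DESeq2's test (0.112) and in the fit of all 15 libraries (0.0787). RAB24 (0.34, adjusted p = 0.0449) was not called without WT replicate 1 (0.0906) or 3 (0.101) or without ΔNLS replicate 1 (0.243) or 2 (0.0779), in DESeq2's test (0.0859) or in the fit of all 15 libraries (0.0544).

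**Figure D2:**
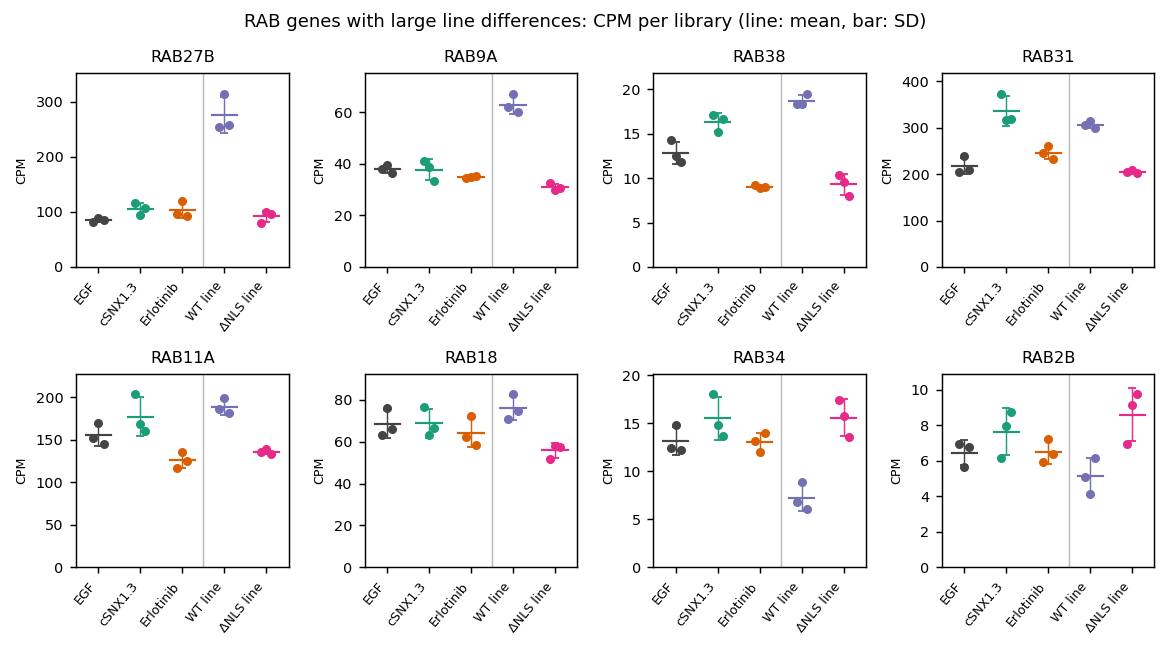
CPM of 8 RAB genes in all 15 libraries (points), with the mean (line) and SD (bar) of each group of 3 and an axis that starts at 0; the grey line divides the drug libraries from the line libraries, which were scaled in separate fits. RAB27B and RAB9A stood highest in the WT line and RAB34 lowest, and RAB31 was high in cSNX1.3 and in WT.

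Scaled together over all 15 libraries, the mean of 13 of the 29 members called between the lines was nearer to the EGF libraries in the ΔNLS line, and that of 16 in the WT line. RAB27B, RAB9A, RAB34 and RAB31, chosen after their values were seen, are of the first kind and RAB7A and RAB1A of the second. RAB27B was at 251 to 308 CPM in WT, at 79.4 to 97.7 CPM in ΔNLS and at 81.6 to 92.1 CPM in the EGF libraries. RAB9A was at 59.2 to 65.7 CPM in WT, 29.4 to 31.9 CPM in ΔNLS and 36.5 to 40.8 CPM in EGF. RAB34 was at 6.03 to 8.70 CPM in WT, 13.4 to 17.2 CPM in ΔNLS and 12.2 to 15.2 CPM in EGF. RAB31 was at 296 to 307 CPM in WT, 201 to 205 CPM in ΔNLS and 207 to 245 CPM in EGF. RAB7A was at 356 to 368 CPM in WT, 293 to 303 CPM in ΔNLS and 368 to 402 CPM in EGF, and RAB1A at 278 to 312, 218 to 223 and 297 to 355 CPM. Parental cells and lines differ in transduction, receptor level and treatment, and these levels were not tested against each other.

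The drug and line experiments share no libraries. Of the 20 members called with erlotinib, 13 (65.0%) were also called in ΔNLS vs. WT, where they make 44.8% of 29, and 7 of the 13 had the same direction. Of all genes called with erlotinib, 46.8% were also called between the lines, where they make 49.6% of the calls, and 38.7% of the shared calls had the same direction. RAB38, RAB11A, RAB7A, RAB5C, RAB1A and RAB43 were lower in both and RAB24 higher in both, while RAB27B, RAB30, RAB3A, RAB3B, RAB6B and RAB8A differed in direction. The keratin-rich epithelial marker sum was also lower in both erlotinib and ΔNLS, and its part in these changes was not tested. With cSNX1.3, RAB3B had the direction of the ΔNLS line and RAB31 the opposite one.

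Whether the line difference equalled the peptide difference was tested as an interaction over all 15 libraries, and 18 of 51 members were called (35.3%, against 23.1% of 16524 genes). In 15 the ΔNLS difference lay below the cSNX1.3 difference (29.4%, against 11.8% of all genes), and in RAB34, RAB40B and RAB15 above it. For RAB31 the cSNX1.3 difference of 0.63 and the ΔNLS difference of -0.58 had opposite signs and were each called, and they differed by -1.20 ± 0.12 (adjusted p = 1.83e-07). RAB27B differed by -1.90 ± 0.16 (adjusted p = 1.04e-08), RAB38 by -1.34 ± 0.15 (adjusted p = 7.32e-07) and RAB9A by -1.01 ± 0.12 (adjusted p = 2.15e-06), and none of these was called with cSNX1.3 in the fit of the drug libraries. In the fit of all 15 libraries, which gave the interaction, RAB38 was called with cSNX1.3 (0.34, adjusted p = 0.0476). For RAB34 the 2 differences were 0.87 ± 0.20 apart (adjusted p = 0.00266). RAB15 was called in the peptide comparison and not between the lines, and its 2 differences were 0.46 ± 0.10 apart (adjusted p = 0.00156).

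**Figure D3:**
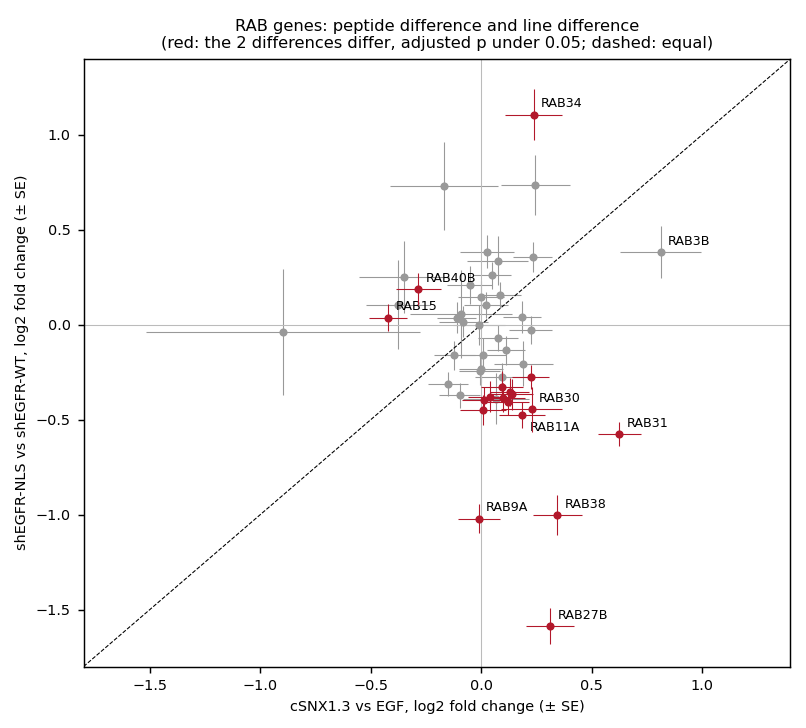
Log2 fold change of the 49 RAB genes tested in both experiments in cSNX1.3 vs. EGF (x axis) against ΔNLS vs. WT (y axis), with SE bars; red points are genes whose 2 differences differed at an adjusted p under 0.05, and the dashed line marks equal values. RAB27B, RAB38, RAB9A and RAB31 lie far below the line, with ΔNLS differences of -1.59, -1.001, -1.02 and -0.58, and RAB34 above it at 1.11.

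Effectors of the RAB27 proteins were looked at after their values were seen. They link RAB27 vesicles to motors and to the plasma membrane. In ΔNLS vs. WT, SYTL5 had 66.4, 63.5 and 65.9 CPM in WT and 26.9, 23.9 and 27.2 CPM in ΔNLS (log2 fold change -1.33 ± 0.08, adjusted p = 1.57e-09). SYTL2 (-1.01), SYTL4 (-0.73), SYTL1 (-0.46) and MLPH (-0.34) fell too, while SYTL3, EXPH5 and UNC13D did not pass (0.10, -0.03 and -0.16) and MYRIP had 0 counts in every library. Scaled over all 15 libraries, SYTL5 was at 62.3 to 65.5 CPM in WT, 23.5 to 26.9 CPM in ΔNLS and 17.8 to 19.6 CPM in EGF. SYTL2 was at 25.4 to 26.2 CPM in WT, 11.0 to 14.2 CPM in ΔNLS and 9.05 to 11.0 CPM in EGF. These levels of parental cells and lines were not tested against each other. In cSNX1.3 vs. EGF, SYTL5 rose from 17.3 to 19.5 CPM to 30.2 to 30.5 CPM (0.71 ± 0.10, adjusted p = 0.000294) and MLPH by 0.35 (adjusted p = 0.0176), with RAB27B itself at 0.31 and not called. SYTL3 (-0.48, adjusted p = 0.180) and SYTL1 (-0.41, adjusted p = 0.0916) lay below all EGF libraries but did not pass. SYTL2 (-0.13), EXPH5 (0.03), SYTL4 (0.11) and UNC13D (0.19) did not pass either. In erlotinib vs. EGF, SYTL3 rose from 3.39 to 3.67 CPM to 7.81 to 12.1 CPM (1.45 ± 0.18, adjusted p = 7.93e-06) and SYTL1 from 13.6 to 16.4 CPM to 35.1 to 44.3 CPM (1.45 ± 0.13, adjusted p = 3.72e-07), and SYTL4 fell by 0.27.

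Of the whole list of 59 RAB effectors, 57 were tested. In erlotinib vs. EGF 24 were called (42.1%, against 44.0% of all genes), with a median of -0.04. Of the 24, 7 were higher (12.3%, against 22.8% of all genes) and 17 lower (29.8%, against 21.2%). RILP, which links RAB7 to dynein, rose (0.87 ± 0.18), and SH3TC2, a RAB11 effector (-1.65 ± 0.10), BICD1, a RAB6 adaptor for dynein (-1.25 ± 0.13), and EHBP1L1, which binds RAB8 and RAB10 (-0.88 ± 0.13), fell most. With cSNX1.3 5 were called (8.77%, against 6.07% of all genes), all higher (against 3.38%). At an unadjusted p under 0.05 there were 12, with no share of all genes given at that threshold. The 5 called effectors included EHBP1L1 (0.59 ± 0.12, adjusted p = 0.00783, and 0.0624 without cSNX1.3 replicate 2) and EHBP1 (0.43 ± 0.10, adjusted p = 0.0148). The call of EHBP1 was lost without cSNX1.3 replicate 2 (0.0729) or 3 (0.0679) or EGF replicate 1 (0.0535). In ΔNLS vs. WT 28 were called (49.1%, against 41.4% of all genes), 21 lower (36.8%, against 21.0%) and 7 higher (12.3%, against 20.4%), with a median of -0.12. RIMS1, which holds RAB3 vesicles at release sites, had a mean of 9.57 ± 0.99 CPM (SD, n = 3) in WT and 1.34 ± 0.18 CPM in ΔNLS (-2.83 ± 0.15, adjusted p = 8.01e-10). Scaled over all 15 libraries, RIMS1 was at 8.36 to 10.3 CPM in WT, 1.18 to 1.51 CPM in ΔNLS and 0.259 to 0.329 CPM in EGF. These levels of parental cells and lines were not tested against each other. KIF20A, a kinesin named for its binding of RAB6 and needed in mitosis, rose from 56.7 ± 3.9 to 173 ± 15 CPM (1.61 ± 0.08, adjusted p = 3.03e-10). BICD1 (0.46) and MICALL2 (0.39), a RAB8 and RAB13 effector, were also higher.

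Genes of the RAB cycle were called about as often as all genes. Of 75 exchange factors, GTPase-activating proteins, dissociation inhibitors, escort and prenylation genes, 74 were tested with the drugs and 73 in the lines. In erlotinib vs. EGF 36 were called (48.6%, against 44.0% of all genes), with a median of -0.01. Of the 36, 19 were higher (25.7%, against 22.8% of all genes) and 17 lower (23.0%, against 21.2%). The GTPase-activating genes TBC1D9 (0.76 ± 0.10) and RABGAP1L (0.71 ± 0.12) and the exchange factor DENND2B (0.70 ± 0.09) rose, and TBC1D30 (-0.67 ± 0.17) and TBC1D24 (-0.63 ± 0.16) fell. In ΔNLS vs. WT 28 were called (38.4%, against 41.4% of all genes), or 17 without ΔNLS replicate 3, with a median of -0.01. Of the 28, 10 were higher (13.7%, against 20.4% of all genes) and 18 lower (24.7%, against 21.0%). DENND4B (0.72 ± 0.11) and RAB3IL1 (0.62 ± 0.13) rose there, and ALS2CL (-0.84 ± 0.09), DENND1B (-0.63 ± 0.08) and SGSM1 (-0.62 ± 0.10) fell.

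With cSNX1.3 3 machinery genes were called, all higher (4.05%, against 3.38% of all genes called higher and 6.07% called in either direction). They were the exchange factors RAB3IL1, which activates RAB3 and RAB8 (0.53 ± 0.12, adjusted p = 0.0138), RIN1, which activates RAB5 (0.52 ± 0.11, adjusted p = 0.0103), and DENND1A, which activates RAB35 (0.34 ± 0.09, adjusted p = 0.0407). RAB3IL1 was not called without cSNX1.3 replicate 3 (adjusted p = 0.0688) or EGF replicate 1 (0.0924), and RIN1 not without EGF replicate 1 (0.0655) or 3 (0.0554). DENND1A was lost when any of the 6 libraries was left out (adjusted p = 0.0896 to 0.159).

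Ratios of paralog counts within a library do not depend on scaling. A 2-sided exact permutation test of 3 against 3 libraries cannot go below p = 0.1, and the smallest Benjamini-Hochberg adjusted value over the 42 tests, of 14 pairs in 3 comparisons, was 0.15. The groups did not overlap in 10 of 14 pairs in erlotinib vs. EGF, 8 in cSNX1.3 vs. EGF and 10 in ΔNLS vs. WT. The pairs described below are examples, and separation was usual among all pairs. The RAB6A to RAB6B count ratio was 5.68, 5.37 and 5.72 in EGF and 10.8, 12.8 and 10.9 in erlotinib (exact permutation p = 0.1). The RAB7A to RAB7B ratio was 56.7 to 59.9 in EGF, 142 to 176 in erlotinib and 85.2 to 94.2 in cSNX1.3. The RAB27A to RAB27B ratio was 0.157 to 0.189 in WT and 0.426 to 0.510 in ΔNLS, and the RAB11A to RAB11B ratio 2.09 to 2.39 in WT and 1.39 to 1.55 in ΔNLS.

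**Figure D4:**
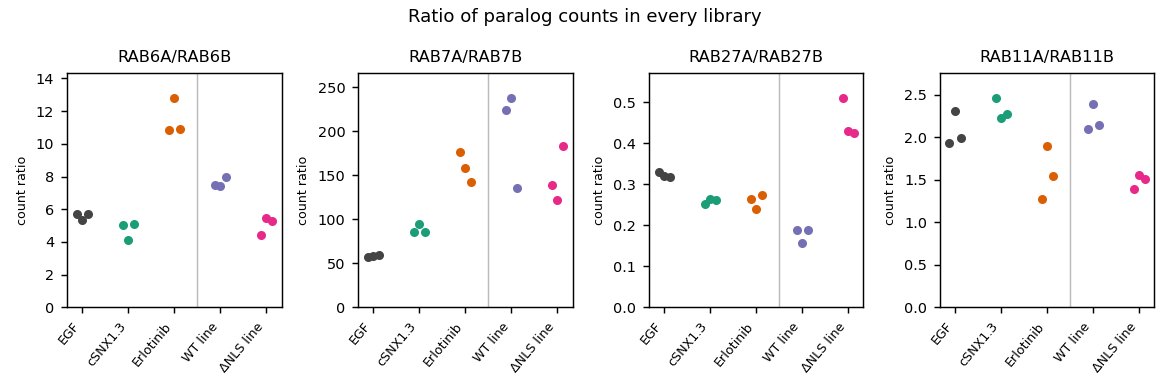
Ratio of the counts of 4 pairs of paralogs in each of the 15 libraries (points), on axes that start at 0, with the drug libraries to the left of the grey line. The RAB6A to RAB6B ratio is highest in erlotinib, at 10.8 to 12.8, and the RAB27A to RAB27B ratio highest in ΔNLS, at 0.426 to 0.510.

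**Figure D5:**
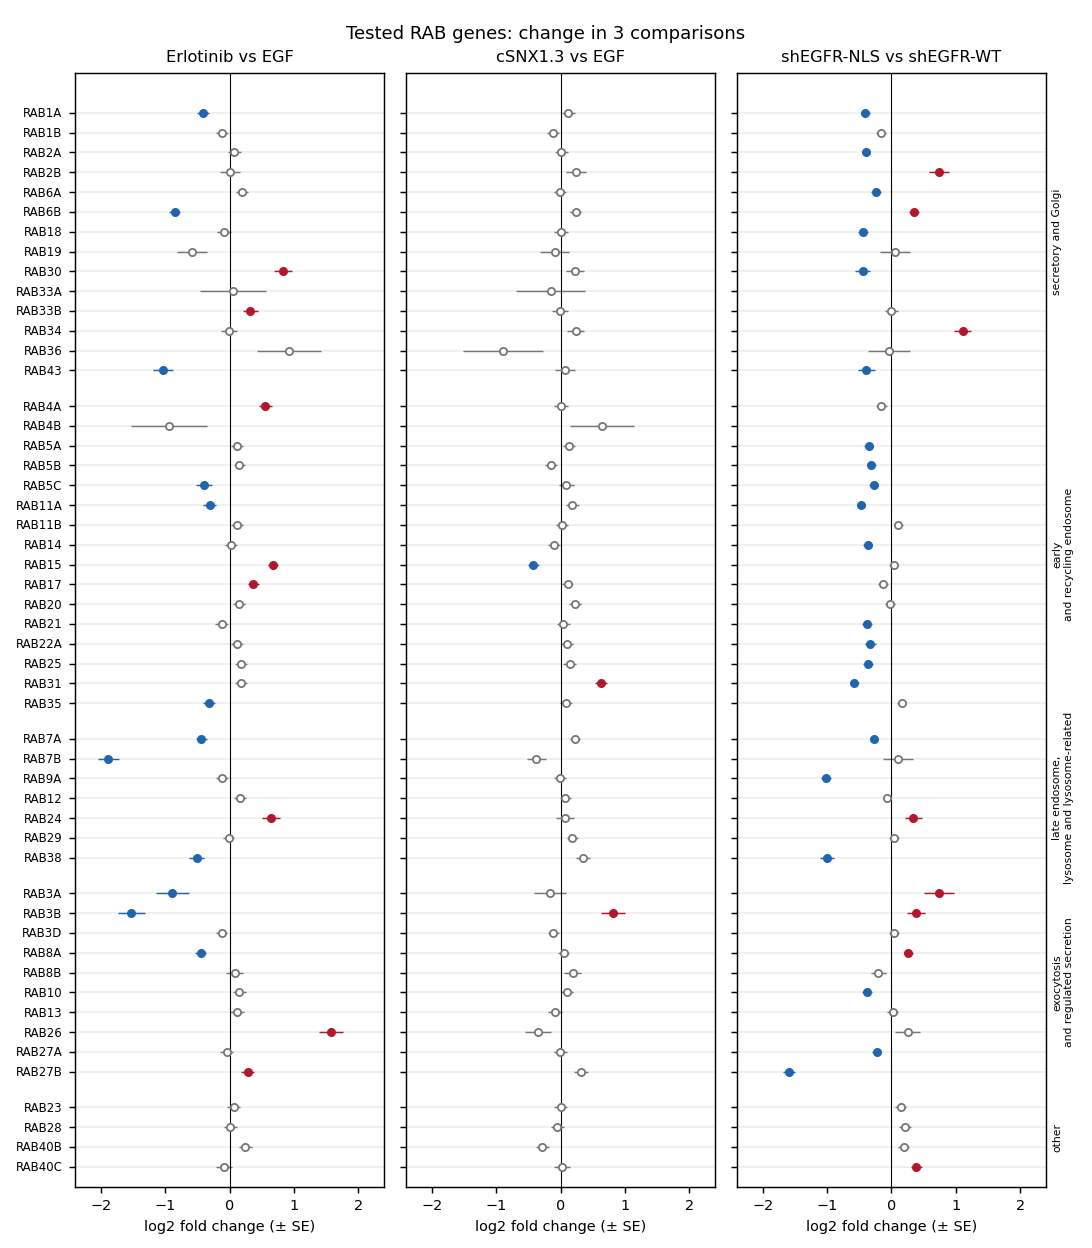
Log2 fold change with SE of the tested RAB genes, grouped by role, in erlotinib vs. EGF, cSNX1.3 vs. EGF and shEGFR-NLS vs. shEGFR-WT; red points were called higher, blue points lower and open points not called at an adjusted p under 0.05. Called members numbered 20, 3 and 29, and those of the early and recycling endosome called between the lines were all lower in ΔNLS.

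In all, 15 tested members were called in none of the 3 comparisons, namely RAB1B, RAB3D, RAB4B, RAB8B, RAB11B, RAB12, RAB13, RAB19, RAB20, RAB23, RAB28, RAB29, RAB33A, RAB36 and RAB40B. RAB1B, the most abundant member per length in the EGF libraries, had 200 to 230 CPM there, 182 to 214 CPM in erlotinib, 184 to 208 CPM in cSNX1.3, 228 to 258 CPM in WT and 204 to 236 CPM in ΔNLS, and in each comparison the groups overlapped. RAB4B, RAB33A and RAB36 were at or below 1.22 CPM in every library, where differences are hard to detect at this depth. Even so, RAB4B was higher (1.58 ± 0.55, adjusted p = 0.0234) and RAB36 lower (-1.82 ± 0.56, adjusted p = 0.0112) in cSNX1.3 than in erlotinib. RAB4B was not called without cSNX1.3 replicate 2 (0.112) or 3 (0.0555) or erlotinib replicate 1 (0.0831) or 3 (0.0656), nor in DESeq2's test (0.0699), and RAB36 not without erlotinib replicate 3 (0.0554). RAB40B was also lower with the peptide than with erlotinib. Its call was kept under all 14 alternatives (log2 fold change -0.599 to -0.485, adjusted p at most 0.00327). The interaction called it too (0.47). Fitted over all 15 libraries, RAB40B was called against EGF with each drug, higher with erlotinib (0.24, adjusted p = 0.0289) and lower with the peptide (-0.29, adjusted p = 0.0454).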

How the data were processed

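The authors trimmed the reads, aligned the pairs to GRCh38 with STAR and counted them on Ensembl genes with unstranded featureCounts, and the deposited values are these raw counts. The annotation release is not given in the sources used here, and 61399 of 61552 gene IDs were matched to GENCODE 44. With edgeR 4.0.16, libraries were scaled by TMM, genes filtered with filterByExpr and a robust quasi-likelihood model fitted separately to the 9 drug and the 6 line libraries, and to all 15 for the interaction. Calls have a Benjamini-Hochberg adjusted p under 0.05 over all genes tested. The fit was tested on simulated data. RPKM used GENCODE union exon lengths. Reads shared by overlapping or near-identical genes could not be told apart. Genes named are, per comparison, the 6 largest called rises and falls of members with a mean of at least 1 CPM, 9 endosomal and Golgi members, members called with both drugs or in the interaction, and the 3 largest rises and falls of machinery and effectors, of which 1 machinery gene is not reported here. The members and lists were chosen with earlier results of these data known. Of the effector list, 1 symbol had no match. Alternatives included DESeq2 1.42.0, other filters and scalings, the replicate number as a block and leaving out each replicate.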

Additional observations from a re-analysis of the deposited data

Results flagged for a closer look

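The difference between ΔNLS vs. WT and cSNX1.3 vs. EGF passed edgeR's test for 18 RAB genes. ΔNLS vs. WT compares single lines, and cSNX1.3 vs. EGF a 12 h treatment of parental cells. Between the lines, the mutation and any other difference cannot be told apart. The log2 difference was -1.90 for RAB27B, -1.34 for RAB38, -1.20 for RAB31, -1.01 for RAB9A, -0.67 for RAB30, -0.66 for RAB11A, -0.53 for RAB1A, -0.50 for RAB25, -0.50 for RAB7A, -0.48 for RAB10, -0.48 for RAB5A, -0.45 for RAB18, -0.42 for RAB22A, -0.41 for RAB21 and -0.40 for RAB2A. It was 0.87 for RAB34, 0.47 for RAB40B and 0.46 for RAB15. Under all alternatives 13 of the 18 kept an adjusted p under the threshold. At an adjusted p under 0.01 the calls of RAB10, RAB2A, RAB18, RAB21 and RAB22A were lost. Leaving out single libraries of ΔNLS, WT, cSNX1.3 or EGF moved RAB2A, RAB18 and RAB21 to an adjusted p between 0.0554 and 0.0840, and RAB22A reached 0.0535 without ΔNLS replicate 3.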

How the results depend on the processing

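The number of RAB genes called stayed within 1.5 times of the reported count under the alternatives tried, except that a fit of all 15 libraries called 5 in cSNX1.3 vs. EGF instead of 3. Leaving out 1 replicate gave 17 to 21 calls for erlotinib vs. EGF, 2 to 3 for cSNX1.3 vs. EGF, 21 to 23 for cSNX1.3 vs. erlotinib, 25 to 28 for ΔNLS vs. WT and 15 to 20 for the interaction. For cSNX1.3 vs. EGF, the machinery had 0 calls at an adjusted p under 0.01, 5 with DESeq2, 5 with all 15 libraries and 0 to 4 with a replicate left out, and the effectors 2 at an adjusted p under 0.01 and 1 to 6 with a replicate left out. The reported counts are 3 for the machinery and 5 for the effectors. The machinery in ΔNLS vs. WT, with 28 reported, had 13 calls at an adjusted p under 0.01 and 17 to 29 with a replicate left out. The causes were not tested.

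The sign of values that passed no test turned in 7 cases. RAB4A in cSNX1.3 vs. EGF was at -0.00978 with no filter on low counts and ran from -0.0846 to 0.0986 with a replicate left out. In that comparison RAB11B ran from -0.0415 to 0.0788 and RAB6A from -0.0508 to 0.0547, and RAB15 in ΔNLS vs. WT from -0.000395 to 0.0611. Of 1453 alternative values of single genes, 1376 kept their direction and their side of the threshold, 68 lost and 2 gained a call.

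Same-numbered libraries deviated together with correlations of -0.232 to 0.286 in the drug experiment and -0.106 to -0.015 in the lines. Libraries of different number in the drug experiment ran from -0.380 to 0.434. No sign of pairing by number was seen, but so few libraries cannot exclude it, and the labels do not state it. With the replicate number as a block, 18 RAB genes were called in erlotinib vs. EGF, 3 in cSNX1.3 vs. EGF, 24 in cSNX1.3 vs. erlotinib, 27 in ΔNLS vs. WT and 18 in the interaction. RAB33B (adjusted p = 0.0535) and RAB27B (0.0581) were not called with the block in erlotinib vs. EGF, nor RAB3B (0.0587) and RAB24 (0.0730) in ΔNLS vs. WT.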
